A study of Mus musculus with 6 samples.

Results

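As a rule, Zfp genes encode zinc finger proteins of the C2H2 class, and in the mouse the name Zfp is followed by a number. The set described here holds the genes whose symbol is Zfp plus a 3-digit number of 400 or more with nothing after it, read from probe sets that carry exactly 1 gene symbol. It came to 233 probe sets of 216 genes, of the 22180 genes that such probe sets name on the array. The set was chosen by name alone: RefSeq lists its member Zfp783 as a long noncoding RNA and Zfp572 as a transcribed pseudogene. RNA levels were read on Affymetrix mouse gene arrays from whole retina, pooled from both eyes of male mice at postnatal day 17. The 3 knockout samples are Chx10Cre+/-;Atrx flox/y, and the 3 wildtype samples are littermates labelled Chx10Cre-/-;Atrx flox/y. Both groups therefore carry the floxed Atrx allele on their X chromosome, and only the knockout group carries the Cre transgene, so the transgene's own effect and that of Atrx loss cannot be told apart. Chx10, whose name the Cre carries, is a gene of retinal progenitors and bipolar cells. The submitters chose the age because loss of amacrine and horizontal neurons in the knockout is then at its height.

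Many C2H2 zinc finger genes of the mouse also encode a KRAB domain. KRAB zinc finger proteins bind DNA through their row of fingers and recruit Trim28, which brings in the histone methyltransferase Setdb1 and HP1 proteins; the H3K9 methylation that follows silences retroelements and some imprinted genes. These genes multiplied by duplication and lie in clusters of close relatives. ATRX, the chromatin remodeller encoded by Atrx, is known to load histone H3.3 together with Daxx at such heterochromatin and to bind within zinc finger gene clusters. Other members carry no KRAB domain and act as developmental transcription factors, as partners of chromatin complexes or on ribosomes and RNA.

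The promoters shown here are those of the members the results turn on: Zfp949 and Zfp472, the only members whose difference passed the test, Zfp781, the next by p-value, and Zfp868, Zfp869 and Zfp964 of a cluster on chromosome 8 described below. Each is the RefSeq window of 300 bases on assembly GRCm38.p6, from 250 bases before to 50 after a transcript start, written 5′ to 3′ on the gene's strand. The windows lie at chr9:88547770-88548069 (plus strand) for Zfp949, chr17:32965581-32965880 (plus) for Zfp472, chr10:81930463-81930762 (minus) for Zfp781, chr8:69625499-69625798 (minus) for 1 of the windows of Zfp868, chr8:69716853-69717152 (minus) for Zfp869 and chr8:69654306-69654605 (plus) for Zfp964. Capitals mark CCAATCAG, a run that contains the CCAAT box, or its reverse complement CTGATTGG.
Zfp949: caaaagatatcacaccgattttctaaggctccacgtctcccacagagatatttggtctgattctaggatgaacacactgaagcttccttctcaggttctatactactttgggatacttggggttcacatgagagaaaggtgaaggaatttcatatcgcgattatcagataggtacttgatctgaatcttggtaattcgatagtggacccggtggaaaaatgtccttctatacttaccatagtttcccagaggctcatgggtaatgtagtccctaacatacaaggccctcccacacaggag
Zfp472: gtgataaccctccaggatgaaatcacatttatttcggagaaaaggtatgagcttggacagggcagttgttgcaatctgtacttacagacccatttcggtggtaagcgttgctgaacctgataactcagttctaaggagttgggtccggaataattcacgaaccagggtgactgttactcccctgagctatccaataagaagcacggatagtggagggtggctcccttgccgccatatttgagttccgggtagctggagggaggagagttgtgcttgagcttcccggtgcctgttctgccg
Zfp781: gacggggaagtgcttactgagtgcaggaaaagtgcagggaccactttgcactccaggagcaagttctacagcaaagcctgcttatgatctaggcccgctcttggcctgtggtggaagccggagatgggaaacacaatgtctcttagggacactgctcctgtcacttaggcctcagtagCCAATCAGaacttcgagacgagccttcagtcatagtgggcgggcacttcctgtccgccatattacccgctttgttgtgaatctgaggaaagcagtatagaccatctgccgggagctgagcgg
Zfp868: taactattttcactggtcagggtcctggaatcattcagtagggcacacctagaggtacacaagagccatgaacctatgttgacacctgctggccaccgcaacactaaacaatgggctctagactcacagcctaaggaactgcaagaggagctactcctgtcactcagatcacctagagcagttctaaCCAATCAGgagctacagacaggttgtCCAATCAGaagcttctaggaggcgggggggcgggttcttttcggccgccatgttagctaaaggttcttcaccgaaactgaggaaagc
Zfp869: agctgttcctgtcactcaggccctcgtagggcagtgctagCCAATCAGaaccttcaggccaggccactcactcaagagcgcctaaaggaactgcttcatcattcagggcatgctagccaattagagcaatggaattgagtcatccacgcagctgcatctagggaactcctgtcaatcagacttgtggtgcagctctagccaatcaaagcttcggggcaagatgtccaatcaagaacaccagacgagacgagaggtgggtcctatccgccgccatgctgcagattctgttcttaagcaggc
Zfp964: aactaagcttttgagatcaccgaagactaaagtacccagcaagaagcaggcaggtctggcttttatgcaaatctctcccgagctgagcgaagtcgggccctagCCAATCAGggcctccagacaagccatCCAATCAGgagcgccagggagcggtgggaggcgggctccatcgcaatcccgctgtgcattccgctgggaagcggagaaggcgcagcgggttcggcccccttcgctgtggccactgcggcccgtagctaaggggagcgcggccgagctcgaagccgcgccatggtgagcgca

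CCAATCAG was the run of 8 bases, counted on both strands, with the largest difference in percent between the members' promoters and all promoters of the same table; by ratio others stood higher, such as GAGTGACA (11.7% and 1.61%). It was found by counting every such run, so its share is a description. It stood in 36 of 213 windows of the 177 members that had one (16.9%), in 10 of 136 windows of Zfp1 to Zfp399 (7.35%) and in 1346 of all 32851 windows (4.10%). The windows of Zfp949 and Zfp472 do not hold these letters. The GC box GGGCGG, on either strand, was in 47.9% of the members' windows and in 35.7% of all, and the TATA sequence TATAAA in 6.10% and 13.6%. The members' windows held a median of 13 CpG dinucleotides, against 7 over all windows. In the windows of Zfp1 to Zfp399 the median was 15.5, and the GC box stood in 42.6% and TATAAA in 9.56%.

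The arrays were alike in brightness, with medians of log2 values between 5.57 and 5.64, and rod genes were bright on all 6 (mean of 8 rod genes 11.46 to 11.61), as retina would give. Atrx itself had log2 values of 8.42, 8.72 and 8.33 in knockout 1, 2 and 3 and 9.04, 8.86 and 9.17 in wildtype 1, 2 and 3. Its log2 change of -0.53 (SE 0.12) missed the threshold (limma, adjusted p = 0.115), and the knockout and wildtype values did not overlap. How its probes lie against the floxed part was not examined. Lens genes were high on knockout 2 and wildtype 1 (mean of 14 lens genes 9.91 and 11.24) and lower on the other 4 arrays (5.91 to 6.32). Several results for the members are given with and without the lens-rich arrays, knockout 2 and wildtype 1. The mean of 11 amacrine genes was 6.93 to 7.26 in knockout and 7.60 to 7.70 in wildtype, and 6 of the 11 fell (0.346% of all genes). The mean of 8 horizontal cell genes was 7.80 to 7.99 in knockout and 8.12 to 8.17 in wildtype, with 0 called by limma and 4 at an unadjusted p under 0.05, all lower (6.50% of all genes). The mean of 9 pigment epithelium genes was lowest on knockout 1 (9.33, against 9.74 to 10.43 on the others). The single genes differed in this. Tyrp1, Dct, Pmel and Mlana were lowest on knockout 1, Rpe65, Lrat, Ttr and Rdh5 on wildtype 1, and Rlbp1 on knockout 2. The part of these cell types in the members' values was not tested. In whole tissue, fewer cells of a type and less RNA per cell cannot be told apart.

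Zfp949 and Zfp472 rose in knockout retina, and no other member passed the threshold. A member was tested if its log2 value, made by the authors with RMA, was at least 5 on at least 3 arrays, which 191 of the 216 genes met; all 191 were fitted together with the other genes, 15619 in all, by limma, with Benjamini-Hochberg adjustment over all of them and a threshold of 0.05. Over all genes tested 129 passed (0.826%), 75 higher (0.480%) and 54 lower (0.346%) in knockout. Among the tested members 2 passed (1.05%), both higher, a share close to that background.

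Zfp949 (chr9:88548020-88571086) showed the largest difference of the set. Its log2 values were 8.20, 8.46 and 8.36 in knockout 1, 2 and 3 and 7.08, 7.20 and 7.23 in wildtype 1, 2 and 3. The lowest knockout value thus stood nearly a log2 unit above the highest wildtype value, and the arrays within each group lay close together. The means were 8.34 ± 0.13 and 7.17 ± 0.08 (SD, n = 3 per group). The log2 change was 1.17 (SE 0.091, 95% interval 0.96 to 1.38), which is 2.25-fold (limma, adjusted p = 0.0022). The change was 1.07 without the lens-rich arrays (adjusted p = 0.027; 0.230% of all genes passed), and the call held without any single array.

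Zfp472 (chr17:32965831-32979211) was 7.44, 7.68 and 7.65 in knockout 1, 2 and 3 and 6.63, 6.80 and 6.88 in wildtype 1, 2 and 3. The groups did not overlap, and the lowest value was that of wildtype 1. The means were 7.59 ± 0.13 and 6.77 ± 0.13 (SD, n = 3 per group). The log2 change was 0.82 (SE 0.0997, 95% interval 0.59 to 1.05), or 1.77-fold (limma, adjusted p = 0.011). Its call was lost without wildtype 2 (log2 change 0.84, adjusted p = 0.065) and without both lens-rich arrays (0.71, adjusted p = 0.076). With the lens list mean as a covariate it held (0.82, adjusted p = 0.017).

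The next members by p-value stood just outside the threshold. Zfp781 was 8.67, 8.81 and 8.52 in knockout and 7.96, 8.15 and 8.26 in wildtype, in replicate order, with a log2 change of 0.54 (SE 0.11, adjusted p = 0.077). It passed with a log2 floor of 6 (adjusted p = 0.041) and with an intensity trend and robust spread (0.022), settings in which 1.78% and 1.81% of all genes passed, while without both lens-rich arrays its change was 0.39 (0.234). Another probe set, which carries the symbol Zfp781 together with 4 others, had a log2 change of 0.25. Zfp960 was 9.87, 9.81 and 9.57 in knockout and 9.40, 9.23 and 9.28 in wildtype, a change of 0.45 (SE 0.099, adjusted p = 0.099); it was the brightest member, with a mean of 9.53, and passed with the intensity trend (0.030). For both genes every knockout array was above every wildtype array.

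Zfp423 had the lowest log2 change of the tested members. It encodes a factor with many zinc fingers and no KRAB domain that acts in cerebellar and fat cell development and binds Ebf proteins. Its values were 6.75, 6.65 and 6.54 in knockout 1, 2 and 3 and 7.05, 7.03 and 6.97 in wildtype 1, 2 and 3, so that the groups did not overlap. The log2 change was -0.37 (SE 0.081, 95% interval -0.56 to -0.19) and missed the threshold (limma, adjusted p = 0.097); it was -0.36 without both lens-rich arrays (0.273).

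**Figure D1:**
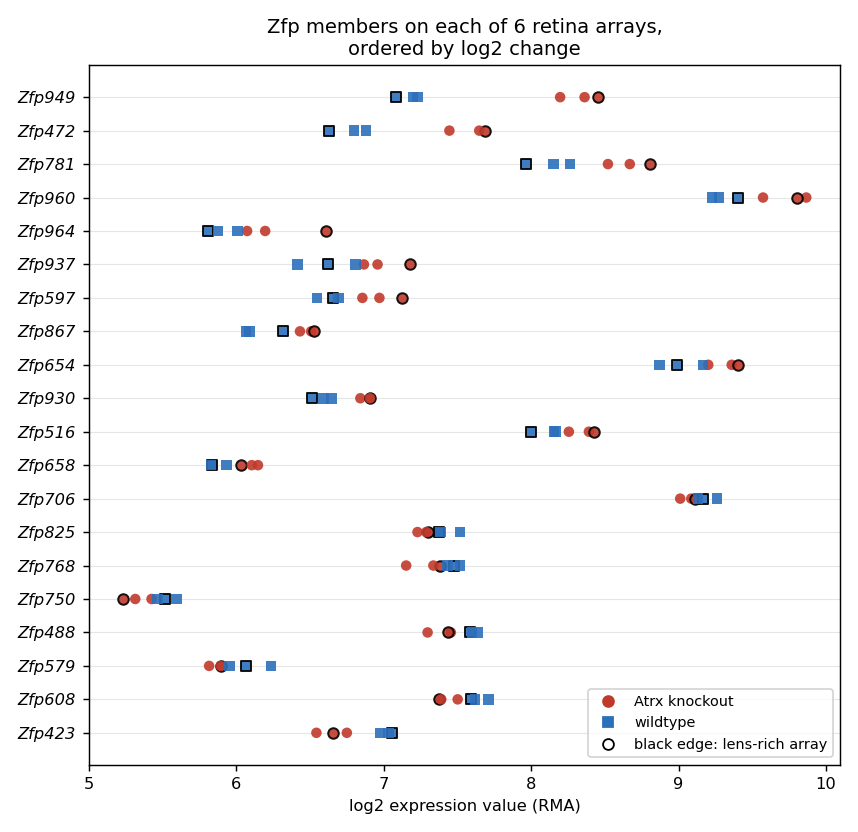
Log2 expression values (x axis) of 20 Zfp members on each array, 1 row per gene ordered by log2 change; circles are knockout, squares wildtype, and a black edge marks the arrays rich in lens RNA, knockout 2 and wildtype 1. Zfp949 and Zfp472, at the top, are the pair that passed the test, and Zfp423, with the lowest change, is at the bottom.

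Further members with no overlap between the groups differed by less and did not pass the threshold. Of the 30 above 0, the next by p-value were Zfp964 (log2 change 0.40), Zfp937 (0.38), Zfp597 (0.35), Zfp867 (0.33), Zfp654 (0.32), Zfp930 (0.30), Zfp516 (0.25) and Zfp658 (0.23), with adjusted p-values from 0.132 to 0.276. Zfp516 is a co-activator of thermogenic genes in brown fat. The 8 below 0 were Zfp423, described above, Zfp608 (-0.22), Zfp579 (-0.22), Zfp488 (-0.21), Zfp750 (-0.20), Zfp768 (-0.19), Zfp825 (-0.15) and Zfp706 (-0.12), the last 7 with adjusted p-values from 0.283 to 0.543. Zfp488 is a partner of Olig2 in oligodendrocyte differentiation, and Zfp750 is a factor of epidermal differentiation; Zfp750 was dim here, at 5.42, 5.23 and 5.31 in knockout and 5.52, 5.59 and 5.47 in wildtype.

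Small positive differences were more common than small negative ones. Among the 191 tested members every knockout value was above every wildtype value for 30 (15.7%), against 10.7% of all genes tested, and every knockout value was below for 8 (4.19%), against 9.58%. At an unadjusted p under 0.05 there were 20 members above 0 (10.5%; all genes 6.99%) and 5 below 0 (2.62%; all genes 6.50%). A log2 change above 0 was found for 120 of the 191 (62.8%), against 50.9% of all genes tested. Most of the differences were small: 168 of the 191 changes were under 0.25 in size, the median was 0.055, and that over all genes was 0.0027. The median standard error of a member was 0.095, so a difference of the size of the median cannot be seen in a single gene.

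**Figure D2:**
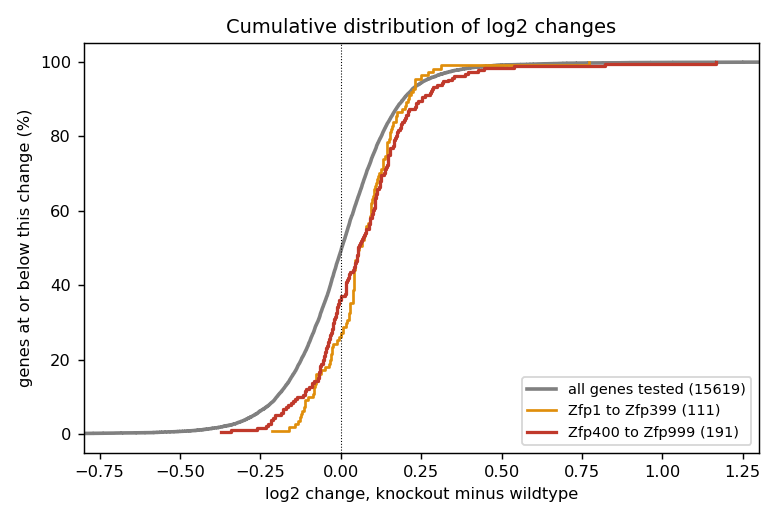
Cumulative share of genes (y axis, percent) at or below each log2 change (x axis, knockout minus wildtype) for the 191 tested members, 111 tested genes named Zfp1 to Zfp399 and all 15619 genes tested. Both Zfp curves run to the right of the curve of all genes around 0, with medians of 0.055, 0.057 and 0.0027; a few of all genes lie outside the x axis.

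The excess above 0 was smaller on the 4 arrays with lower lens gene levels. The mean of the 191 tested members was 6.95, 7.02 and 6.90 on knockout 1, 2 and 3 and 6.86, 6.89 and 6.92 on wildtype 1, 2 and 3. Knockout 2 was the highest array and wildtype 1 the lowest, and knockout 3 lay below wildtype 3, so the groups overlap. Without knockout 2 and wildtype 1 the median change was 0.016, with 104 of 191 members above 0 (54.5%; all genes 49.5%). On the 4 remaining arrays the knockout values lay above the wildtype values for 42 members (22.0%; all genes 20.8%) and below for 35 (18.3%; all genes 24.2%). The lens genes were high on both of these arrays, in opposite groups, and their part in the shift was not tested beyond this; with the lens list mean as a covariate the median was 0.062. Without knockout 2 alone the median was 0.031, with 55.0% above 0 (all genes 50.5%). Without wildtype 1 alone it was 0.053, with 60.2% above 0 (all genes 49.6%). Without knockout 3, the knockout array with the lowest member mean, the median was 0.10, with 68.1% above 0 (all genes 51.8%).

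**Figure D3:**
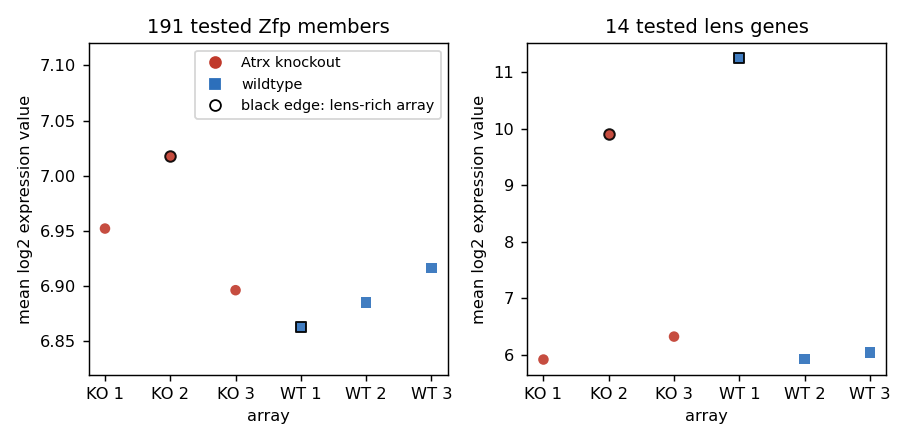
Mean log2 expression value (y axes, not starting at 0) of the 191 tested members (left) and of 14 lens genes (right) on each array (x axis); circles are knockout (KO), squares wildtype (WT), and black edges mark the lens-rich arrays. The members' mean ran from 6.86 on wildtype 1 to 7.02 on knockout 2, the same arrays on which the lens mean reached 11.24 and 9.91.

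The 25 members that did not pass the brightness filter had means from 2.62 to 4.80 and were not tested. Their log2 change was above 0 for 14, against 49.6% of all 6561 genes below the filter. All knockout values were above all wildtype values for 6 of the 25 and below for 0, against 4.63% and 4.56% of those genes. Zfp936, at 4.89, 5.24 and 4.92 in knockout and 4.41, 4.18 and 4.69 in wildtype, had the largest difference (0.59). Zfp459 was 4.78, 4.84 and 4.75 in knockout and 4.43, 4.20 and 4.46 in wildtype (0.42). No member was tested through the arrays of 1 group alone, and 187 of the 216 were at or above the floor on all 6 arrays. With no filter, over all 216 members, 134 changes were above 0 (62.0%; all genes 50.5%), with a median of 0.055, and Zfp949 and Zfp472 were again the only members called (0.926%; all genes 0.334%).

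By brightness, the shares above 0 in the set and in all genes were 55.6% and 43.0% for means from 5 to 6, 68.3% and 48.1% from 6 to 7, 58.6% and 53.8% from 7 to 8, and 72.7% and 57.6% from 8 upwards (36, 63, 70 and 22 members). The share above 0 was higher in the set than in all genes at each level. The brightest members after Zfp960 were Zfp445 (mean 9.43), Zfp638 (9.40), Zfp654 (9.17) and Zfp706 (9.13). Zfp445, a KRAB protein that maintains imprints, was 9.24, 9.58 and 9.37 in knockout and 9.45, 9.39 and 9.55 in wildtype, with overlapping groups and a 95% interval of the log2 change from -0.30 to 0.17. Zfp638, which binds RNA and DNA and silences retroviral DNA, was 9.56, 9.53 and 9.30 against 9.34, 9.35 and 9.35.

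Members were also read by known role, in groups drawn up after their values had been seen. None of them held a called gene. Of the KRAB repressors of retroelements or imprints, 5 were tested, and their median change was 0.11: Zfp809, which represses murine leukaemia virus, stood at 7.79 ± 0.11 in knockout and 7.62 ± 0.04 in wildtype (log2 change 0.17, adjusted p = 0.416), Zfp568, a repressor of a placental transcript of Igf2, at 0.17, Zfp932 at 0.11, Zfp445 at -0.065 and Zfp708 at -0.17. Zfp455 to Zfp459 belong to the Rsl family, named for the regulation of sex-limited liver genes; 3 were tested, with Zfp455 at 0.29, Zfp458 at -0.053 and Zfp456 at -0.26, and Zfp457 and Zfp459 were too dim.

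The 11 neural and developmental factors had a median of -0.024. The knockout values of 4 of them, Zfp423, Zfp488, Zfp608 and Zfp750, lay below all wildtype values (36.4%, against 9.58% of all genes). Those of 1, Zfp516 (0.25), lay above all wildtype values (9.09%, against 10.7% of all genes). As this group too was drawn up after its values had been seen, these shares are a description and say nothing about such factors in general. Others of this group had smaller differences: Zfp521, a close relative of Zfp423, was at 0.027 (8.42 ± 0.11 against 8.40 ± 0.16), Zfp503 at -0.024, Zfp703 at -0.012 and Zfp536, a repressor of neuronal differentiation, at 0.11. Among partners of chromatin complexes, Zfp592, Zfp687 and Zfp532, which act together with Zmynd8, were at -0.021, -0.15 and -0.044, and Zfp410, which drives Chd4 transcription, at 0.065. Zfp827, whose human counterpart recruits the NuRD complex to telomeres, was at 0.18 (7.27 ± 0.09 against 7.09 ± 0.08, adjusted p = 0.393). Zfp711, X-linked like Atrx, was at 0.20 (adjusted p = 0.309). Zfp598, a ubiquitin ligase that acts on collided ribosomes, was 7.78 ± 0.05 in knockout and 7.62 ± 0.03 in wildtype (0.16, adjusted p = 0.370).

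The members' genes lie in groups along the chromosomes. RefSeq gave positions for 215 of the 216 on 20 chromosomes, with 56 on chromosome 7, 27 on chromosome 17 and 18 on chromosome 8. When members within 500 kb of the next were joined, 11 clusters of 5 or more members held 86 genes. The median log2 change was 0.053 for the 75 tested members in these clusters and 0.059 for the 116 outside them, medians that lie close together.

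Single clusters, picked out after their values had been seen, ran in different directions; over all genes 50.9% were above 0 and 10.7% had no overlap with knockout higher. On chromosome 8 (chr8:69209018-69774911) all 6 members were tested and all 6 were above 0, and for 5 of them the knockout values lay above the wildtype values. Zfp930 was 6.84, 6.90 and 6.91 in knockout and 6.52, 6.59 and 6.64 in wildtype (log2 change 0.30, SE 0.074, adjusted p = 0.132). Zfp964 was 6.19, 6.61 and 6.07 against 5.81, 5.87 and 6.01 (0.40, adjusted p = 0.276), with knockout 2 above the rest. Zfp868 (0.18), Zfp869 (0.17) and Zfp963 (0.14) also had no overlap, and Zfp866 (0.14) had. The median was 0.17, and it was 0.17 as well without the lens-rich arrays, with all 6 above 0. The 2 other tested genes in this span were both below 0 (median -0.12). Promoter windows were at hand for 5 of the 6, and at least 1 window of each holds CCAATCAG, as the lines for Zfp868, Zfp869 and Zfp964 show. In global alignments the first listed windows of these 5 genes matched each other at 48.7% to 59.0% of bases, and their matches with the windows of Zfp949 and Zfp472 ran from 46.3% to 53.7%. For Zfp868 the first listed window, chr8:69625126-69625425, is not the one shown above and does not hold CCAATCAG. Whether such matches exceed those of unrelated windows was not tested.

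On chromosome 17 the cluster from Zfp677 to Zfp945 (chr17:21383707-22867309) had 10 tested members of 14, all above 0, with a median of 0.18. Zfp994 reached 0.43 (6.64, 6.29 and 6.41 in knockout, 6.21, 6.16 and 5.68 in wildtype, adjusted p = 0.289), and the groups did not overlap for Zfp994 and Zfp758. Without the lens-rich arrays the median was 0.13, with 9 above 0. Of 6 other tested genes in this span 5 were above 0 (median 0.12). The cluster of Zfp790, Zfp940, Zfp420, Zfp568 and Zfp566 on chromosome 7 had changes from 0.040 to 0.17, all above 0, and overlapping values for each gene.

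At the other end, the 6 members between Zfp628 and Zfp580 on chromosome 7 (chr7:4915181-5053723) were all below 0, with a median of -0.12 and of -0.11 without the lens-rich arrays. Zfp579 was 5.81, 5.90 and 5.89 in knockout and 6.06, 6.23 and 5.95 in wildtype, the only one of the 6 whose groups did not overlap (log2 change -0.22, adjusted p = 0.356); Zfp524 was at -0.18, Zfp784 at -0.14, Zfp628 at -0.11, Zfp580 at -0.054 and Zfp865 at -0.033. In the cluster of the Rsl genes on chromosome 13, 5 of 10 tested members were above 0 and 5 below. Members of 1 cluster were joined by position alone and may share sequence, so they cannot be taken as independent. The sequences of the genes and of the array's probes were not compared here, so how far a probe set also takes up a close relative was not tested.

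Of the tested members with a promoter window, 28 hold CCAATCAG and 129 do not. A log2 change above 0 was found for 22 of the 28 (78.6%) and 80 of the 129 (62.0%), against 50.9% of all genes tested. The medians were 0.15 and 0.051, and without the lens-rich arrays 0.090 and 0.0061. Among the 28, knockout values lay above all wildtype values for 9 (32.1%) and below for 0. Among the 129 they did so for 15 (11.6%) and 5 (3.88%), against 10.7% and 9.58% of all genes tested. Since 5 of the members with the run lie in the cluster on chromosome 8, these genes cannot be taken as independent. Zfp868, Zfp869, Zfp963 and Zfp964 of that cluster, which was picked out after its values had been seen, are among the 9. The split was also made after the values had been seen, so it is given without a test.

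**Figure D4:**
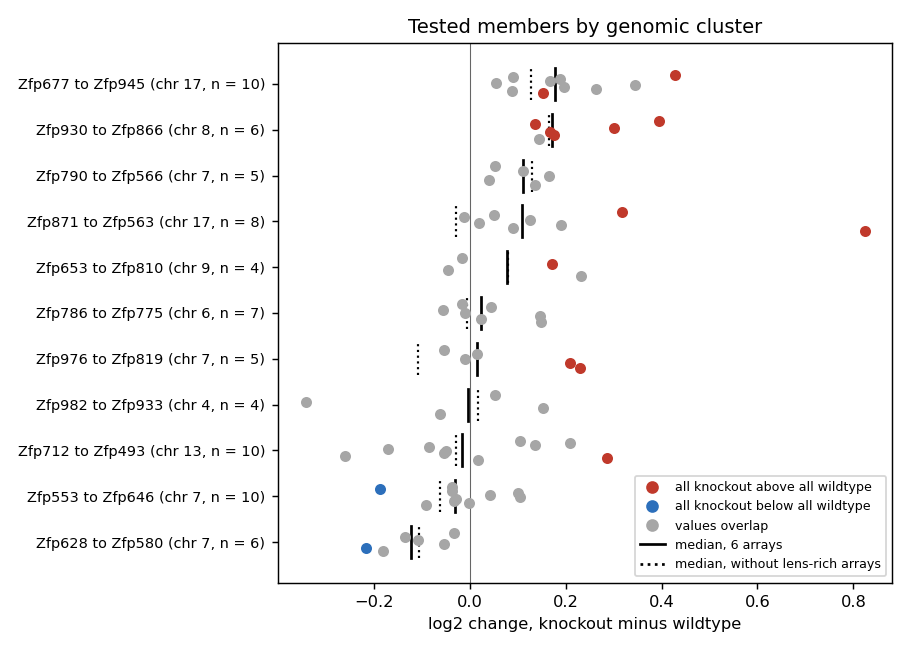
Log2 change (x axis, knockout minus wildtype) of each tested member in the 11 clusters of 5 or more members, named by their first and last gene. Red and blue points are members whose knockout values all lay above or below wildtype, grey points overlap, solid bars are medians over 6 arrays and dotted bars medians without the lens-rich arrays; the clusters run from a median of -0.12 (Zfp628 to Zfp580) to 0.18 (Zfp677 to Zfp945).

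Zfp472 belongs to a cluster on chromosome 17 (chr17:32765496-33110707) with 8 tested members, 7 of them above 0; the median of 0.11 became -0.028 without the lens-rich arrays, with 3 above 0. Its neighbour Zfp952, 13896 bases away, was 6.22, 6.47 and 6.13 in knockout and 5.79, 6.02 and 6.06 in wildtype (0.32, SE 0.11, adjusted p = 0.290), and Zfp763 was at 0.19, Zfp563 at 0.091 and Zfp870 at -0.012. On the other side, the pseudogene Cyp4f41-ps ends 114 bases from the span of Zfp472 and stood at 5.20 ± 0.12 in knockout and 4.85 ± 0.11 in wildtype (0.35, SE 0.093, adjusted p = 0.161); it met the brightness floor on the 3 knockout arrays alone, so its difference and lack of overlap follow in part from the filter. Cyp4f13, a cytochrome P450, stood at 8.01 ± 0.04 and 7.80 ± 0.07 (0.22, adjusted p = 0.277), without overlap. Of these 6 neighbours, limma called 0 (0.826% of all genes). Cyp4f13 and Zfp952 had an unadjusted p under 0.05, both higher in knockout (6.99% of all genes). That of Cyp4f41-ps was also under 0.05, but it is not counted here because of the filter.

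Around Zfp949 the 3 nearest tested genes on each side had smaller differences, and limma called 0 of the 6 (0.826% of all genes), with 0 at an unadjusted p under 0.05. Trim43a, 9804 bases away, was at 0.38 (SE 0.17, adjusted p = 0.376) and near the floor, with means of 5.20 ± 0.32 and 4.82 ± 0.20. Snhg5, a host gene of small nucleolar RNAs, was at 0.19 (SE 0.18), Mthfsl at 0.17, Syncrip, an RNA-binding protein, at 0.072, Snx14 at 0.051 and 9430037G07Rik at -0.0033; knockout and wildtype values overlapped for all 6.

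Of the 216 members, 14 had several probe sets, and in 10 of these the probe sets differed in the sign of their log2 change. In only 4 of the 10 did this hold among probe sets bright enough to be tested. For Zfp597 the brighter probe set was at 0.35 and the dimmer at -0.054, for Zfp937 at 0.38 and -0.088, and for Zfp526 at -0.070 and 0.30. For Zfp672 the brighter, which stood for the gene, was at 0.21 and the dimmer at -0.081. The second probe set of Zfp937 was too dim to test. Zfp949 and Zfp472 have 1 probe set each, so neither has a second reading on this array. Another 35 probe sets carry a symbol of the same name form together with others, and some of them carry no symbol of the 216 members. Of the 35, 28 were bright enough to be tested in the comparison of all 25961 probe sets. In it limma called 0 of the 28, against 0.285% of all probe sets. An unadjusted p under 0.05 was found for 2, both above 0 (6.33% of all probe sets). They carry Zfp595 with Zfp953 (0.50) and Zfp442 with 3300002I08Rik (0.35), and none of these symbols is a member's.

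KRAB proteins act through corepressors, and a list of 30 corepressor and heterochromatin genes was set beside the members; 7 had no probe set of 1 symbol and were not analysed here. Of the 23 tested, 0 passed the threshold in limma's test (0.826% of all genes). An unadjusted p under 0.05 was found for 1, Morc3, which was higher (4.35%, against 6.99% of all genes). Morc3, an ATPase that silences retroelements with Daxx, was 7.89, 7.89 and 7.88 in knockout and 7.57, 7.48 and 7.75 in wildtype (log2 change 0.29, SE 0.087, adjusted p = 0.208), with no overlap. Trim28 was 8.83, 8.88 and 8.81 against 8.82, 8.86 and 8.89, with a 95% interval of its log2 change from -0.18 to 0.15. Setdb1 was at -0.069, Daxx at 0.079 and the HP1 gene Cbx5 at 0.0047. Hells, a remodeller needed for DNA methylation, was at 0.29 (SE 0.13, adjusted p = 0.380), Hdac2 at 0.13 and the DNA methyltransferase Dnmt1 at -0.20 (adjusted p = 0.435). The list median was 0.049, against 0.0027 over all genes. The mean of the 23 genes was 8.11, 8.21 and 8.08 on knockout 1, 2 and 3 and 8.09, 8.07 and 8.10 on wildtype 1, 2 and 3. Knockout 2, a lens-rich array, was the highest, and knockout 3 lay below wildtype 1 and wildtype 3, so the groups overlap.

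The lower-numbered genes Zfp1 to Zfp399 gave a like picture without a called gene. Of 111 tested, 0 passed in limma's test (all genes 0.826%). An unadjusted p under 0.05 was found for 9, all above 0 (8.11%), a share close to the 6.99% of all genes. Below 0 there were 0, against 6.50% of all genes. In all, 82 were above 0 (73.9%, against 50.9% of all genes), and the median was 0.057. The mean of these 111 genes was 7.07, 7.15 and 7.04 on knockout 1, 2 and 3 and 7.01, 7.01 and 7.05 on wildtype 1, 2 and 3. Knockout 2, a lens-rich array, was thus the highest, and knockout 3 lay below wildtype 3. The share and the median without the lens-rich arrays are not given here for this group. Zfp97 was 5.95, 6.90 and 6.08 in knockout and 5.36, 5.52 and 5.74 in wildtype (log2 change 0.77, SE 0.23, adjusted p = 0.203), with knockout 2 far above the rest. Zfp286 was at 0.31 (adjusted p = 0.140), Zfp367 at 0.25 (0.175) and Zfp131 at 0.23 (0.249). Of 24 tested Zscan and Zkscan genes, 0 passed (all genes 0.826%). An unadjusted p under 0.05 was found for 1, which was higher (4.17%, against 6.99% of all genes). Above 0 were 15 (62.5%, against 50.9%), with a median of 0.055. Whether the higher-numbered genes differ from these groups was not tested.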

How the data were processed

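Per probe set, the authors deposited log2 values from RMA, for 41345 probe sets on 6 arrays, per the submitters' processing notes; the sources used here give neither its version nor a genome build. As RMA equalises the arrays' distributions, differences in total RNA per cell do not show. Genes were named from the platform annotation, with 23521 probe sets of 1 symbol, 1814 of several and 16010 unnamed here. The probe set with the highest mean stood for a gene, after a filter of at least 5 on at least 3 arrays. limma 3.58.1 in R 4.3.3 (lmFit, eBayes, genotype as the only term, 2-sided) was fitted to all 15619 genes; its adjusted p-values are Benjamini-Hochberg values, and SE is its moderated standard error. An exact permutation test of 3 against 3 cannot go below p = 0.1. The labels do not state that each sample is a separate animal, so p-values measure the spread between these samples. The procedure was tested on simulated data. RefSeq tables of assembly GRCm38.p6 gave positions and promoters. Figures were drawn with matplotlib 3.10.9.

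The members, gene lists, tests and alternatives were chosen with earlier results of these data known. By rule the text names Atrx, called members and the 5 brightest. It also names up to 10 uncalled members above and 10 below 0 with the smallest p and no overlap. Members whose probe sets differ in sign are named where either has an unadjusted p under 0.05 in the comparison of all probe sets. The rule adds up to 4 genes of the corepressor list and up to 4 of Zfp1 to Zfp399. It adds the 3 nearest tested genes on each side of a called member. Genes named by role or cluster, Trim28, Setdb1, Daxx, Cbx5, Zfp672 and dim members were chosen after their values were seen. The alternatives were other filters, scalings, spread models, probe set rules, the replicate number as a block, each array left out, and both ways of treating the lens-rich arrays.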

Additional observations from a re-analysis of the deposited data

How the results depend on the processing

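The number of members called was 2 with the main settings, 3 with a log2 floor of 6, 4 with an intensity trend and robust spread (Zfp781 and Zfp960 in addition), 1 without both lens-rich arrays, and from 1 to 2 without single arrays; Zfp949 was called in each of these. The median change of the tested members was 0.016 without both lens-rich arrays and 0.031 to 0.10 without single arrays. Whether the replicate numbers pair the samples cannot be settled here. Deviations of same-numbered arrays correlated at -0.27, -0.38 and -0.058. The lens-rich arrays, knockout 2 and wildtype 1, carry different numbers and correlated at 0.39, which could hide a pairing. With the replicate block 2 members were called, at a median of 0.055. Over all genes the calls went from 129 to 68 with the replicate block, 74 with no filter, 74 with all probe sets, 209 with a log2 floor of 6, 282 with the intensity trend, 36 without the lens-rich arrays and 25 to 141 without single arrays. Changes near 0 turned sign for Zfp445 (-0.16 to 0.015 without single arrays), Zfp526 (0.12 with the mean of its probe sets), Snx14 (-0.024) and Zfp563 (-0.040) without the lens-rich arrays, Zfp563 (-0.022 to 0.15), Zfp870 (-0.058 to 0.052) and 9430037G07Rik (-0.23 to 0.13) without single arrays, and 9430037G07Rik (0.032) with the lens covariate. The corepressor list and Zfp1 to Zfp399 had 0 calls in each setting. Precision is limited by the 6 arrays. For all of these shifts the cause was not tested.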
